A study of Mus musculus with 16 samples.

Results

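The clustered histone genes of the mouse are the genes whose symbols begin with Hist1 to Hist4 followed by the histone they encode. All genes in the count table with such a symbol were taken, which gave 70 of 54838 genes. They comprise 6 genes for the linker histone H1 and 20, 19, 12 and 13 genes for the core histones H2A, H2B, H3 and H4. In GENCODE M21 (build GRCm38), 56 of them lie in the Hist1 cluster on chromosome 13, 10 in Hist2 on chromosome 3, 3 in Hist3 on chromosome 11 and 1 in Hist4 on chromosome 6. Of the 70, 67 are annotated as protein coding and 3 as pseudogenes.

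RNA was sequenced from spleens of C57BL/6 mice in 2 groups of 8 samples. Per the labels, spleens were digested with enzymes, red blood cells were lysed, and the cells that stayed on a strainer were collected as the size-selected group, whose source is named as spleen glia. The other group is whole spleen, for which no separate preparation is described, so the sieving and any difference in handling cannot be told apart. Each number from the labels names 1 sample of each group, with 4 male and 4 female numbers, and no treatment, allele or age is given for either group. Totals ran from 13119992 to 19944440 estimated counts in the size-selected samples and from 12153770 to 16282454 in whole spleen. Of 10 glia markers, 8 passed the count filter and all 8 were higher in the size-selected samples, where the summed glia markers ran from 74.5 to 618 CPM (counts scaled to a common library size), against 1.80 to 6.52 CPM in whole spleen. The summed fibroblast markers were far above that in the same samples, at 1227 to 3996 CPM, as were those of smooth muscle, at 851 to 3923 CPM, so RNA of these cells was present beside that of glia.

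Histones package DNA into nucleosomes, in which the core histones form the protein spool and H1 binds the linker DNA between spools. Most clustered histone genes are replication-dependent: they are transcribed as cells copy their DNA, and their mRNA is not polyadenylated but ends just after a short stem-loop that is bound by the stem-loop binding protein Slbp. A few members are also made as ordinary polyadenylated mRNA, which persists in cells that no longer divide. Hist1h1c, Hist1h2bc, Hist2h2be and Hist3h2a were set apart here as members known for polyadenylated mRNA.

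The stem-loop was searched in GENCODE M21 transcripts as GG, any 2 bases, CTTTT, any base, AG, any 2 bases and CC, on the sense strand within 150 bases past the stop codon, and was found in 44 of the 70 genes. Over all genes of the release, 89 of 55450 (0.1605%) held these letters anywhere in a transcript. The most frequent form was found in 26 members. In 15 coding members the model ends under 30 bases past the stop codon, so that no match could be seen there. The stretches of 6 members named in the results are shown, with the stem-loop in capitals and up to 5 flanking bases on each side, 5′ to 3′:
Hist1h2ap: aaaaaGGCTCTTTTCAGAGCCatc
Hist1h4d: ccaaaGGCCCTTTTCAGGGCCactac
Hist1h1e: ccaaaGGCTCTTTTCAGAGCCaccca
Hist3h2ba: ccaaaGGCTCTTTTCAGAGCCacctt
Hist1h1c: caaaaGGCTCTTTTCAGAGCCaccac
Hist3h2a: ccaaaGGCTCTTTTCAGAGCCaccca
The same stem-loop occurs in members on and off the polyadenylated list. Hist1h1c (chr13:23738808-23740367, plus strand) and Hist3h2a (chr11:58954685-58956830, plus strand) hold the same 16 bases as Hist1h2ap (chr13:21833026-21833507, minus strand). The models differ in what comes after it. The annotated transcript goes on for 3 bases in Hist1h2ap, for 840 bases in Hist1h1c and for 1643 bases in Hist3h2a. Hist1h2bc (chr13:23684199-23692908, plus strand) has a spliced model of 2 exons and no match in the window, and the single exon of Hist2h2be (chr3:96221119-96223738, plus strand) goes on for 2192 bases past the stop codon, also with no match in the window. A wider class, called annotation-extended here, holds the members with more than 1 exon or more than 200 annotated bases past the stop codon. It has 25 members, and 21 of them carry the stem-loop.

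Upstream, 61 members were matched by symbol to RefSeq promoter sequences (GRCm38.p6), and the 250 bases before the start were searched on both strands. The octamer ATTTGCAT, a known element of H2B promoters, was found in 7 of 17 H2A and 7 of 16 H2B promoters and in none of 6 H1, 10 H3 and 12 H4 promoters, against 1.813% of 27025 RefSeq genes. CCAAT was found in 17 of 17 H2A, 16 of 16 H2B and 6 of 6 H1 promoters, in 8 of 10 H3 promoters and in 3 of 12 H4 promoters (37.49% of all genes). TATAAA was found in every class, in 4 of 6 H1, 7 of 17 H2A, 8 of 16 H2B, 4 of 10 H3 and 6 of 12 H4 promoters (14.33% of all genes). The promoter of Hist1h2bg (chr13:23571150-23571399, plus strand) overlaps that of Hist1h2ae, which is transcribed the other way. Both genes fell below, and they were chosen after their values were seen. Some other neighbours transcribed apart from each other did not both fall. Hist2h2ac fell (log2 fold change, size-selected over whole spleen, of -1.58) while Hist2h2be was not called (0.46). Neither Hist1h2ac (-0.58) nor Hist1h2bc (0.10) was called. Such pairs were not counted. The promoter of Hist1h2bg is shown with the matches in capitals:
Hist1h2bg: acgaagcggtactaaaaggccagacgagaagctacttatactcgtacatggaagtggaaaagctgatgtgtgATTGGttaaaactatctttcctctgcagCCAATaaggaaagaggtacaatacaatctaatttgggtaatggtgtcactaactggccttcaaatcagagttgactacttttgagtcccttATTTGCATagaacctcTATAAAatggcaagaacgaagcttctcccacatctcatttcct
Read from left to right, these are a CCAAT match on the opposite strand, a CCAAT match, the octamer and a TATAAA match. A match is a description of the letters and not a measured site.

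In the size-selected samples, the clustered histone genes were lower as a body. Of the 70, 38 passed the filter on low counts, 30 of those fell (edgeR's quasi-likelihood test, Benjamini-Hochberg adjusted p under 0.05 over all genes tested), none rose and 8 were not called. Over all 14510 genes tested, 30.4% were lower and 37.5% were higher, 67.9% in all. At an unadjusted p under 0.05, 1 member was higher, Hist1h1c. DESeq2 called 31 members lower and 0 higher. With the number as a block in edgeR, 32 members were lower and 1 was higher, Hist1h1c, against 4545 and 5531 of all 14510 genes tested. The median log2 fold change was -1.21 over the members tested and 0.05 over all genes tested, and scaling by library totals alone moved the latter to 0.18 with 30 members lower. In bulk samples, fewer cells of a type and less RNA per cell cannot be told apart.

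The filter itself favours members that are high in whole spleen, since 13 of the 38 passed only with the help of the whole spleen samples, and 12 of those 13 fell. The other 25 reached the count in the size-selected samples alone, and 18 of those fell, with a median log2 fold change of -0.88 over the 25. Of the 38 tested, 26 (68.4%) were lower in all 8 pairs, as were 15 of the 25 (60.0%), against 22.3% of all genes tested. In 4 of the 38 (10.5%) the groups did not overlap (Hist1h2ap, Hist3h2ba, Hist1h3i and Hist1h4d, all lower), which is near the 11.6% of all genes tested. Of the 30 calls, 28 held whichever number was left out. The exceptions were Hist1h2ad, which was not called without number 408 and was short of the filter without 435 or 447, and Hist1h3f, which was lost without number 408 (log2 fold change -0.73, adjusted p = 0.0511).

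**Figure D1:**
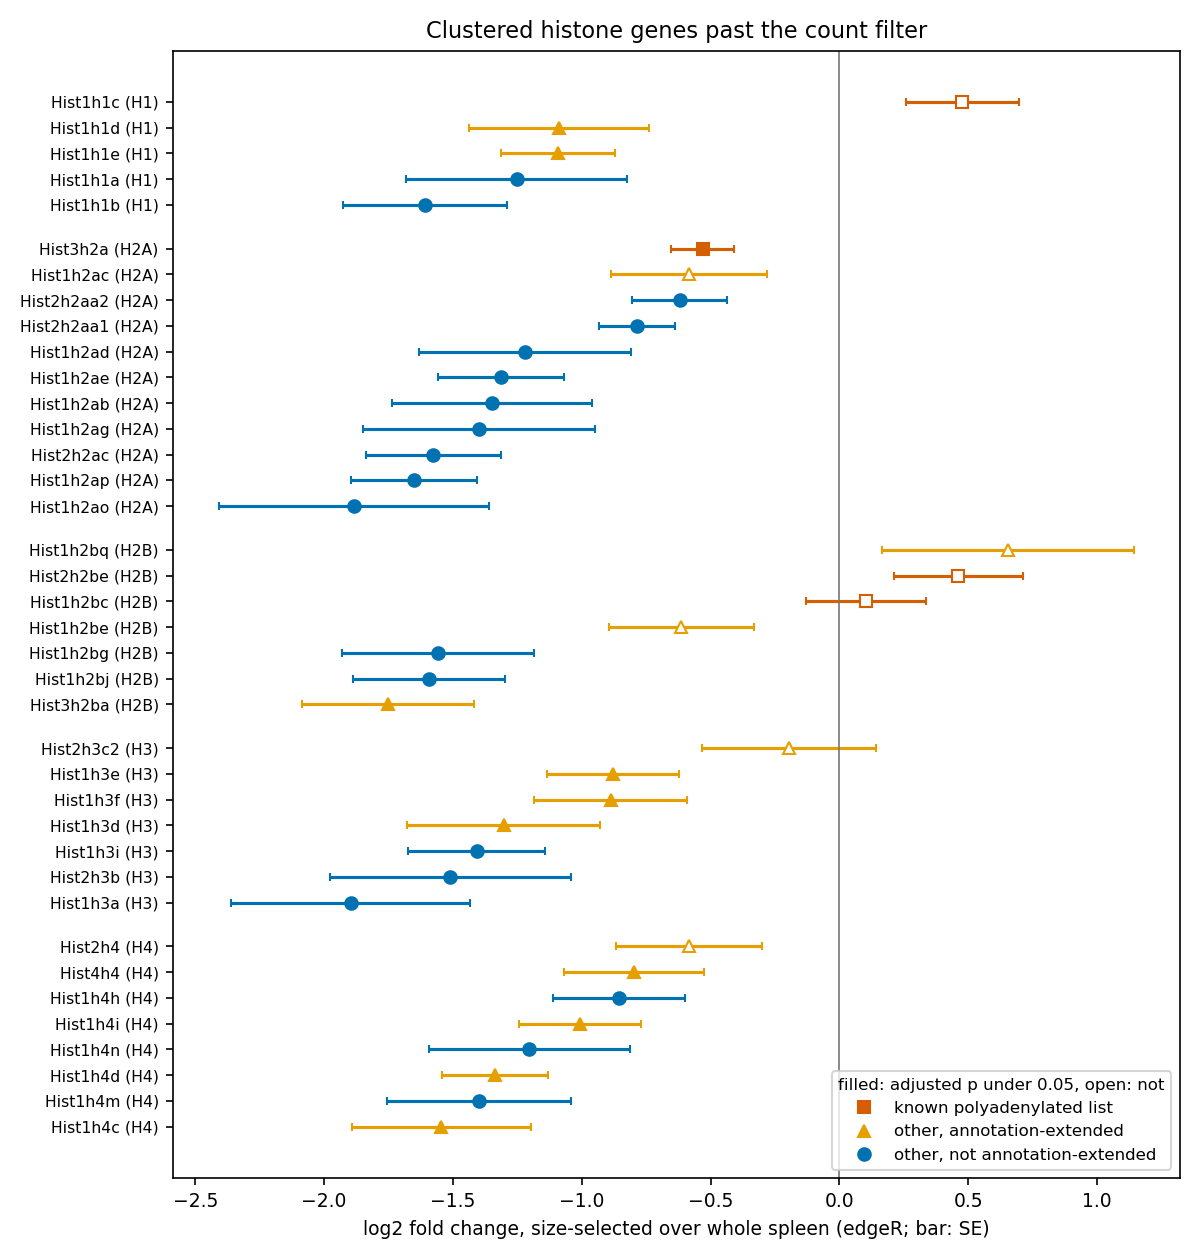
EdgeR log2 fold changes with SE of the 38 members past the count filter, ordered within H1, H2A, H2B, H3 and H4. Filled symbols passed adjusted p under 0.05; the 30 filled symbols lie left of 0, and the 8 open ones include Hist1h1c, Hist1h2bc and Hist2h2be.

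Among the linker histones, 4 of the 5 genes tested fell and Hist1h1c was not called. Hist1h1a and Hist1h1d passed the filter only with the whole spleen samples, and 2 of the other 3 fell. Hist1h1e, one of the somatic H1 subtypes, was at 8.89, 14.8 and 23.8 CPM (lowest, median and highest) in the size-selected samples and at 21.5, 33.2 and 43.4 CPM in whole spleen. It was lower in 8 of 8 pairs with a small overlap of the groups, and the change was -1.09 on the log2 scale (SE 0.22, adjusted p = 0.000251). Hist1h1b, the H1 subtype best known from dividing cells, averaged 4.50 ± 2.64 CPM (SD, n = 8) against 13.7 ± 5.69 CPM (SD, n = 8), which is -1.61 on the log2 scale (SE 0.32, adjusted p = 0.000205). Hist1h1a fell by 1.25 on the log2 scale (SE 0.43, adjusted p = 0.0151).

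Hist1h1c, the H1 subtype of the polyadenylated list, was not called. It was at 42.4, 58.4 and 99.9 CPM in the size-selected samples and at 24.4, 42.8 and 72.8 CPM in whole spleen (lowest, median and highest), so the groups overlapped broadly, and it was lower in 1 of 8 pairs. Its log2 fold change was 0.48 (SE 0.22) and missed the threshold (adjusted p = 0.062). With the number as a block it passed, at 0.50 and an adjusted p of 0.0201. Over all alternatives its adjusted p ran from 0.00957 with sex as a covariate to 0.181 without number 436. The level of Hist1h1c relative to Hist1h1e was also measured within samples, where no scaling enters. This ratio and those given below for H2A and H2B were chosen after the folds were seen and are descriptions, with no test. The log2 ratio of Hist1h1c to Hist1h1e averaged 2.09 ± 0.67 (SD, n = 8) after size selection and 0.45 ± 0.62 (SD, n = 8) in whole spleen. It was higher in 8 of 8 pairs, by a mean of 1.64.

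Among the H2A genes, 10 of 11 tested fell. Of these, 4 passed the filter only with the whole spleen samples, and of the 7 that passed on the size-selected samples alone 6 fell, with a median log2 fold change of -0.79. Hist1h2ap was the most abundant member of all. It was at 57.1, 126 and 190 CPM in the size-selected samples and at 251, 372 and 523 CPM in whole spleen (lowest, median and highest). Every size-selected sample lay under every whole spleen sample. The log2 fold change was -1.65 (SE 0.24, adjusted p = 8.58e-06). This gene alone made up 44.1 ± 6.25% (SD, n = 8) of all member counts in whole spleen and 26.8 ± 6.50% (SD, n = 8) after size selection. Its RNA cannot be fully told from that of its copies, since 93.1% of its 50-base runs also occur in another member, and the deposited counts are estimates that split such reads. Over all members the median share of such runs is 49.4%, and 9 members are over 90%. Overlaps with other genes add to this: 26 members share exonic bases with another gene in GENCODE M21, 7 of them on the same strand, where Hist1h1e shares 496 bases with Hist1h2be and Hist3h2a shares 708 with Trim17, and 23 with a gene on the opposite strand. Whether the counting used strand is not given in the sources used here.

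Hist1h2ao, a near copy at a far lower level that passed the filter only with the whole spleen samples, fell by 1.88 on the log2 scale (SE 0.52, adjusted p = 0.00386), and 93.5% of its runs are shared. Hist2h2aa1, which encodes H2A from the cluster on chromosome 3, averaged 28.0 ± 4.13 CPM (SD, n = 8) against 48.3 ± 12.3 CPM (SD, n = 8), which is -0.79 on the log2 scale (SE 0.15, adjusted p = 0.00013). Its counts carry the same limit, since 89.2% of its runs are shared, and 529 of its 586 exonic bases are shared with Gm20634 on the same strand and all 586 with Gm20633 on the opposite strand. Hist3h2a, the H2A gene of the polyadenylated list, fell least among the called members. It was at 32.7, 40.4 and 52.6 CPM against 44.9, 56.9 and 81.0 CPM (lowest, median and highest), lower in 8 of 8 pairs, with a log2 change of -0.53 (SE 0.12, adjusted p = 0.000808). The log2 ratio of Hist3h2a to Hist1h2ap averaged -2.69 ± 0.34 (SD, n = 8) in whole spleen and -1.48 ± 0.59 (SD, n = 8) after size selection, a mean of 1.21 higher, with 8 of 8 pairs in that direction.

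Of the H2B genes, 3 of 7 tested fell, and 4 were not called (4 and 3 with the number as a block, where Hist1h2be fell). Of the 3 that fell, 2 (Hist1h2bg and Hist1h2bj) passed the filter only with the whole spleen samples. Among the 5 that passed on the size-selected samples alone, 1 fell and the median log2 fold change was 0.10. Hist3h2ba, the neighbour of Hist3h2a on chromosome 11, was at 0.76, 1.59 and 2.56 CPM in the size-selected samples and at 3.43, 4.37 and 12.3 CPM in whole spleen (lowest, median and highest). The groups did not overlap, and the log2 fold change was -1.75 (SE 0.33, adjusted p = 0.000132). Hist1h2bj fell by 1.59 on the log2 scale (SE 0.30, adjusted p = 0.000106). Hist1h2bg, shown above with its promoter, fell by 1.56 (SE 0.37, adjusted p = 0.00117), and Hist1h2ae, on the other side of that promoter, by 1.31 (SE 0.24, adjusted p = 0.000105).

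Hist1h2bc, by far the most abundant H2B gene, was at 37.3, 56.8 and 74.8 CPM in the size-selected samples and at 29.0, 46.6 and 95.3 CPM in whole spleen (lowest, median and highest). The whole spleen values fell into a high and a low group, described below by sex, and the size-selected values lay within their range. The log2 fold change was 0.10 (SE 0.23, adjusted p = 0.713). It is the only member whose deposited size-selected counts carry a multiplying constant, and with that constant removed the log2 fold change was 0.34 (adjusted p = 0.194). Its log2 ratio to Hist3h2ba was 5.22 ± 0.89 (SD, n = 8) after size selection and 3.28 ± 0.37 (SD, n = 8) in whole spleen, higher by a mean of 1.93 in 8 of 8 pairs with no overlap. Hist2h2be, which also encodes H2B, averaged 6.13 ± 2.67 CPM (SD, n = 8) against 4.45 ± 1.25 CPM (SD, n = 8), and its log2 fold change of 0.46 did not pass (SE 0.25, adjusted p = 0.111).

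Hist1h2bq, an H2B gene of up to 3 exons named after its values were seen, was not called either, at a log2 change of 0.65 (SE 0.49, adjusted p = 0.243). Its value depended on single samples: it ran from -0.0085 to 0.92 with 1 number left out, and was 0.41 with the number as a block. It averaged only 2.19 ± 1.99 CPM (SD, n = 8) against 1.39 ± 0.92 CPM (SD, n = 8), and 98.5% of its 50-base runs occur in another member.

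**Figure D2:**
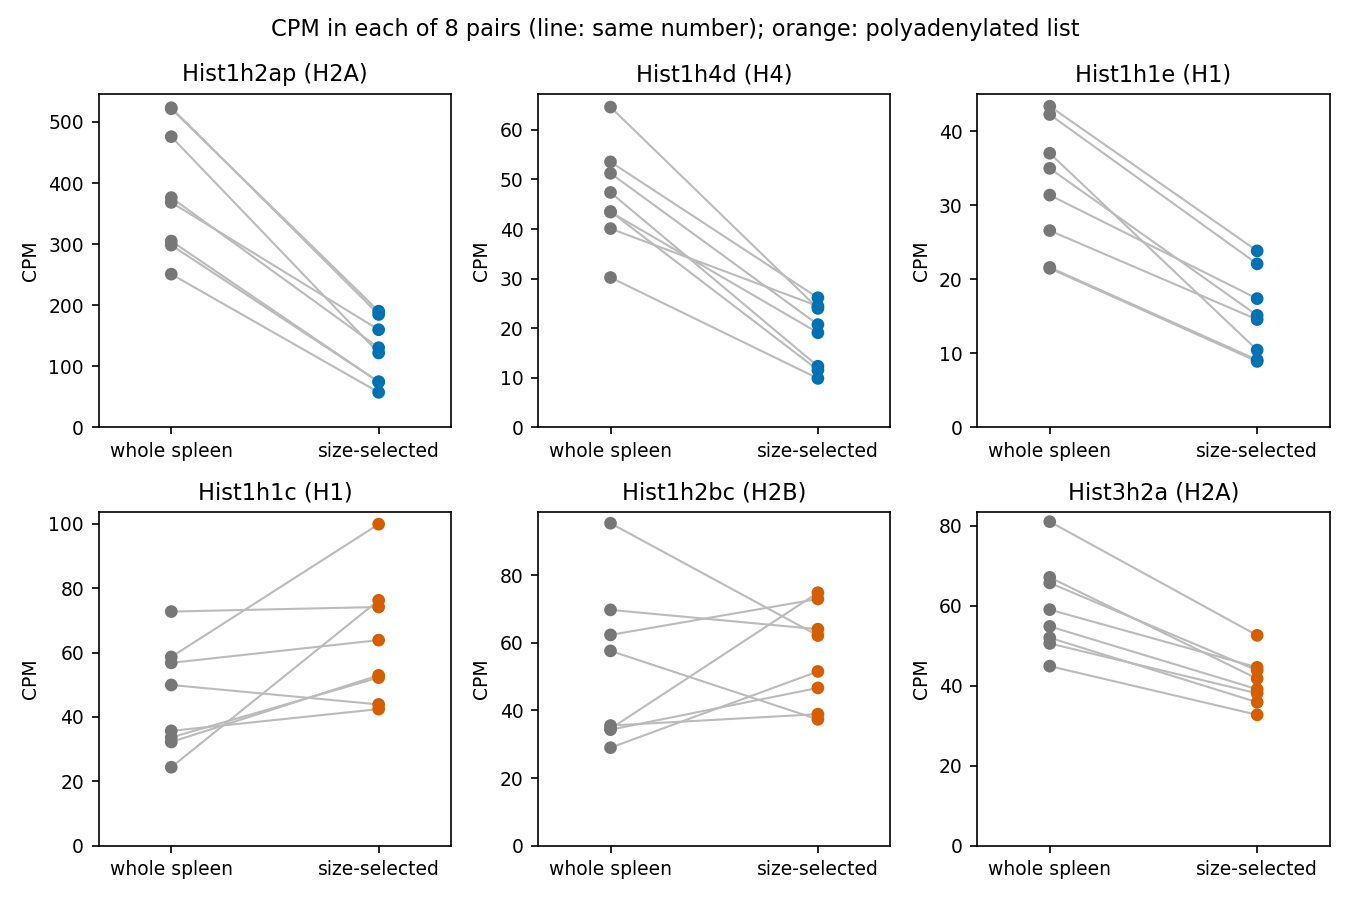
CPM of 6 members in whole spleen and size-selected samples, with a line for each of the 8 numbers. Hist1h2ap, Hist1h4d and Hist1h1e went down in all 8 pairs, Hist1h1c went down in 1, Hist1h2bc in 3, and Hist3h2a in 8 by a smaller ratio.

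Of the H3 genes, which encode the core histone whose tail carries many regulatory marks, 6 of 7 tested fell, all at low levels. Of these 6, 4 (Hist1h3a, Hist1h3d, Hist1h3i and Hist2h3b) passed the filter only with the whole spleen samples, as did 5 of the 7 tested. Hist1h3e was highest, at 1.99, 4.23 and 6.93 CPM against 4.97, 8.75 and 10.7 CPM (lowest, median and highest), with a log2 change of -0.88 (SE 0.26, adjusted p = 0.00518). Hist1h3d fell by 1.30 (SE 0.38), Hist1h3f by 0.89 (SE 0.30) and Hist2h3b by 1.51 (SE 0.47) on the log2 scale. Hist1h3f was lower in 5 of 8 pairs and also lost its call with limma-voom (-0.69, adjusted p = 0.0607). Hist1h3a had the lowest fold change of all members tested, -1.90 (SE 0.46, adjusted p = 0.0014), at a mean of 0.83 ± 0.64 CPM (SD, n = 8) against 3.13 ± 1.85 CPM (SD, n = 8).

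Of the H4 genes, 7 of 8 tested fell, and all 8 with the number as a block. All 8 passed the filter on the size-selected samples alone. Hist1h4d stood far above the others. It was at 9.84, 19.9 and 26.1 CPM in the size-selected samples and at 30.2, 45.5 and 64.6 CPM in whole spleen (lowest, median and highest), with no overlap and a log2 change of -1.34 (SE 0.21, adjusted p = 1.31e-05). Unlike Hist1h2ap, it is well told apart from its copies, with 10.2% of its 50-base runs shared. Hist1h4c fell by 1.54 (SE 0.35, adjusted p = 0.000694), Hist1h4m by 1.40 (SE 0.36, adjusted p = 0.00199) and Hist1h4n by 1.20 (SE 0.39, adjusted p = 0.0108) on the log2 scale.

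Levels of different genes were compared per kilobase of annotated transcript. On this scale Hist1h2ap led in both groups, at 809 CPM per kb in whole spleen and 257 CPM per kb in the size-selected samples. Among the members named by level or list, it was followed in whole spleen by Hist2h2aa1 (82.3 CPM per kb), Hist1h2bc (45.2), Hist1h4d (41.1), Hist1h1c (29.2) and Hist3h2a (27.7). In the size-selected samples the values were 48.5 CPM per kb for Hist1h2bc, 47.7 for Hist2h2aa1, 40.5 for Hist1h1c, 19.1 for Hist3h2a and 16.3 for Hist1h4d. These values rest on annotated lengths, so the level of a member whose RNA ends before the annotated end is understated.

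Summed by class, the H2A, H3 and H4 genes were lower in all 8 pairs with no overlap, and the H1 and H2B sums were not. The H2A sum averaged 235 ± 64.6 CPM (SD, n = 8) after size selection and 579 ± 122 CPM (SD, n = 8) in whole spleen. For H4 the sums were 41.0 ± 10.2 and 95.6 ± 26.9 CPM (SD, n = 8), and for H3 13.0 ± 4.46 and 28.8 ± 5.88 CPM (SD, n = 8). The H1 sum was 86.4 ± 20.5 CPM (SD, n = 8) against 99.2 ± 21.7 CPM (SD, n = 8), lower in 6 of 8 pairs. The H2B sum was 71.9 ± 17.3 CPM against 77.2 ± 30.4 CPM (SD, n = 8), lower in 5 of 8 pairs, and its log2 ratio of -0.10 turned to 0.03 with library totals and to 0.08 with the constants removed. No test was made on sums over the members.

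**Figure D3:**
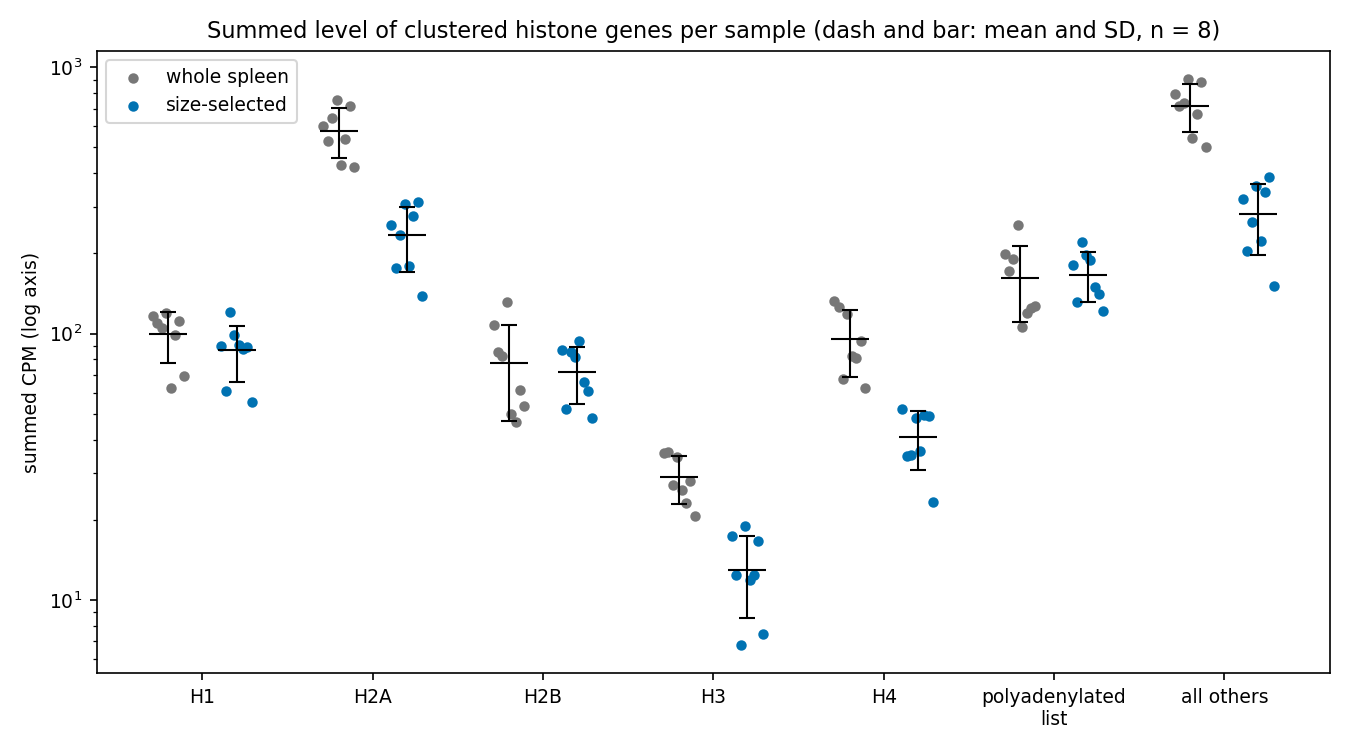
Summed CPM per sample on a log axis for each histone class, for the polyadenylated list and for all other members; dash and bar are mean and SD of 8 samples. The H2A, H3, H4 and other sums do not overlap between groups, while the polyadenylated list lies at 121 to 221 CPM in the size-selected samples and 106 to 255 CPM in whole spleen.

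The polyadenylated list draws on H1, H2A and H2B and has no H3 or H4 gene, and the type of mRNA was not measured in these samples. The 4 genes of the list summed to 166 ± 35.5 CPM (SD, n = 8) after size selection and 162 ± 51.4 CPM (SD, n = 8) in whole spleen, with 4 pairs lower and 4 higher. In males their sum was 183 ± 38.0 CPM after size selection and 204 ± 35.6 CPM in whole spleen (SD, n = 4). In females it was 150 ± 28.2 CPM and 119 ± 9.35 CPM (SD, n = 4). The 66 other members summed to 281 ± 83.4 CPM against 718 ± 146 CPM (SD, n = 8), a log2 ratio of -1.35, lower in 8 of 8 pairs with no overlap. The list therefore took 38.0 ± 7.15% (SD, n = 8) of member counts in the size-selected samples, from 26.7 to 45.8%, and 18.3 ± 3.29% (SD, n = 8) in whole spleen, from 12.3 to 22.0%. The groups did not overlap. Hist1h1c alone took 14.3 ± 3.72% and 5.10 ± 1.19% (SD, n = 8). Hist1h2ap, the most abundant of the other members, took 26.8% after size selection and 44.1% in whole spleen, so the shift in shares rests in part on this 1 gene.

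The wider annotation-extended class includes all 4 list genes, so it is not a separate check on the list. Its sum was 238 ± 43.6 CPM (SD, n = 8) after size selection and 314 ± 78.4 CPM (SD, n = 8) in whole spleen. That sum was lower in 7 of 8 pairs, and the 4 list genes made up 166 and 162 CPM of it. Values for the extended members off the list alone are not given here. Of the 19 members of the class tested, 11 fell and 8 were not called, with a median log2 fold change of -0.80. Of the 19 other members tested, 19 fell, with a median of -1.40. The filter acted unequally on the 2 classes, since 10 of these 19 others passed only with the whole spleen samples, against 3 of the 19 extended members. Among members that passed on the size-selected samples alone, 9 of 16 extended members fell, with a median of -0.71, and 9 of 9 others fell, with a median of -1.31. With the number as a block, 13 of the 19 extended members were lower, 1 was higher (Hist1h1c) and 5 were not called. Across the 38 members tested, the log2 fold change and the annotated bases past the stop codon had a Spearman rho of 0.67, and of 0.67 over the 25 that passed on the size-selected samples alone, given as a description because members share libraries, reads of near copies and promoter regions. Extended models were not a sufficient mark: Hist1h1e, with 1153 annotated bases past its stem-loop, and Hist1h4d, with 770, fell by over 1 on the log2 scale. The labels give total RNA as the molecule, and how RNA was selected for sequencing is not given in the sources used here, so how fully mRNA without a poly(A) tail was captured was not tested.

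**Figure D4:**
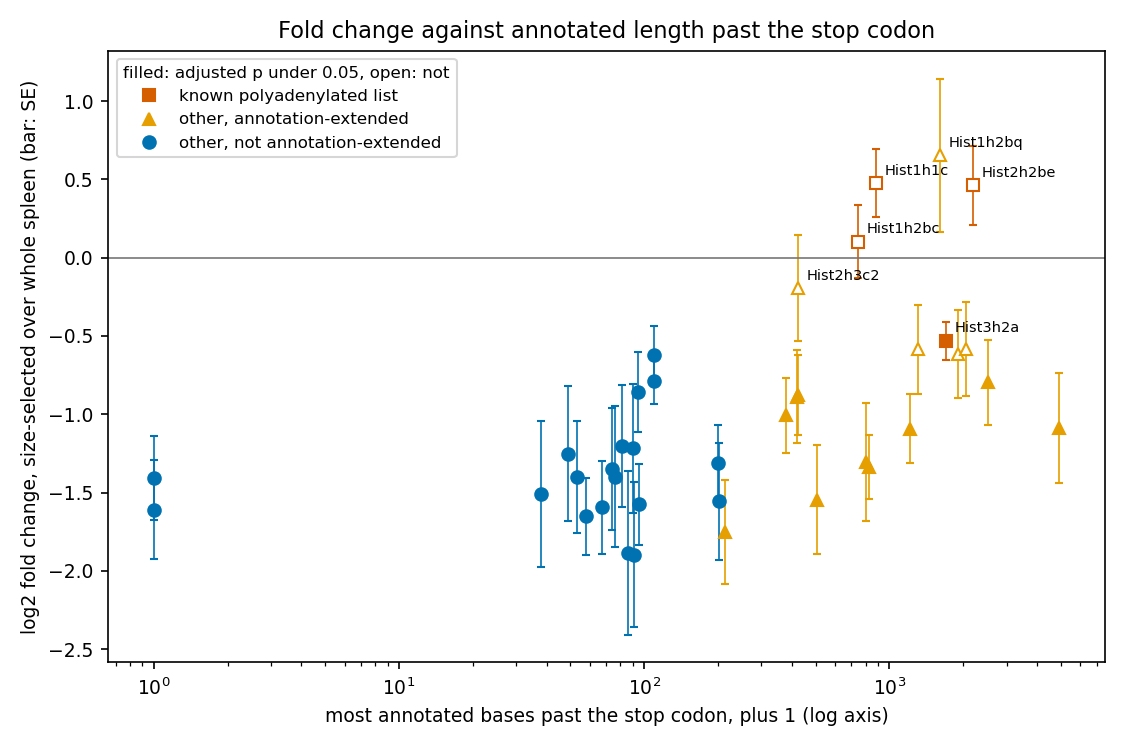
Log2 fold change with SE of the 38 members tested against the most annotated bases past the stop codon in any GENCODE M21 transcript, plus 1, on a log axis. The 19 members that are not annotation-extended are all filled (adjusted p under 0.05) and lie between -1.90 and -0.62; the 8 open symbols all lie at the right.

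The 32 members short of the filter held at most 43.1 counts in any sample (Hist1h2bh). Of these, 3 were at 0 in all samples, 27 had the lower mean in the size-selected group and 2 had the higher. When all genes were tested without a count filter, 67 members could be tested, 39 fell (18.2% of all genes tested were lower) and 1 rose. The 1 that rose was Hist1h1t, the testis H1 gene, at no more than 2 counts in 6 size-selected samples and none in whole spleen, a level at which no fold is given. The authors' deposited table of glia-enriched genes lists 2201 genes, the lowest of them at 3.50 on the log2 scale, and 0 of the 70 members are among them.

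Of 15 genes that make and process histone mRNA, all tested, 4 fell and 3 rose, with a median log2 fold change of -0.13. Over all genes tested 30.4% were lower and 37.5% higher, so the count that fell is near the background. Slbp, which binds the stem-loop, was at 143 ± 20.6 CPM (SD, n = 8) against 225 ± 16.3 CPM (SD, n = 8), which is -0.65 on the log2 scale (SE 0.09, adjusted p = 3.31e-06), or -0.41 with its multiplying constant removed. Casp8ap2, a factor of the bodies where histone genes are transcribed, fell by 1.07 on the log2 scale (SE 0.15). Npat, the cyclin E target that switches on these genes, had a log2 change of -0.12 (SE 0.14, adjusted p = 0.456). Zfp473, a zinc finger protein of histone mRNA 3′ processing, rose by 1.52 (adjusted p = 0.0249) and Upf1, which takes part in histone mRNA decay, by 0.45 (adjusted p = 0.0257), but both calls were lost without a count filter and without number 408 or 436, and that of Upf1 also without 435 or 460.

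Chaperones that carry new histones to chromatin were lower, with 15 of 18 falling (14 with the constants removed) and the others not called. Over all genes tested 30.4% were lower. Asf1b, the H3 and H4 chaperone of dividing cells, fell by 1.52 on the log2 scale (SE 0.17, adjusted p = 3.5e-07). Nap1l1, a chaperone of H2A and H2B, fell by 1.05 (SE 0.10, adjusted p = 4.47e-08).

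The histone genes outside the clusters, most of which give polyadenylated mRNA and which include replacement variants, were mostly lower as well. Of 11 tested, 8 fell and 2 rose. Those that fell included H2afx, which marks DNA breaks when phosphorylated, by 1.06 (SE 0.10), H3f3a, which encodes the replacement histone H3.3, by 1.18 (SE 0.12), and Cenpa, the centromeric H3, by 1.20 (SE 0.18) on the log2 scale. H3f3b, the other H3.3 gene, fell by 0.84 (SE 0.11), and by 0.47 with its constant removed. H1f0, the linker histone of non-dividing cells, rose by 2.19 (SE 0.27, adjusted p = 1.12e-06), from 8.90 ± 4.59 to 40.5 ± 14.2 CPM (SD, n = 8). H2afy2, which encodes the variant macroH2A2, rose by 5.07 (SE 0.64, adjusted p = 1.37e-06), from 0.14 ± 0.28 to 4.56 ± 1.72 CPM (SD, n = 8).

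Measures of cell division and cell content moved with the members, and their part in the result was not tested. Of 30 S phase genes tested, 24 were lower (21 with the constants removed), led by Gmnn, the licensing inhibitor geminin, at -1.71 (SE 0.14), and its target Cdt1 at -1.42 (SE 0.18). Of 20 mitosis genes, 17 were lower and 1 higher, with Birc5 at -1.59 (SE 0.24), Ube2c at -1.56 (SE 0.33) and Bub1b at 1.57 (SE 0.27). Mki67, the marker of cycling cells, was at -1.25 (SE 0.49, adjusted p = 0.0302), a call lost without number 436 (adjusted p = 0.0707). Of the B cell markers 7 of 8 were lower, and their sum ran from 980 to 3611 CPM in the size-selected samples and from 5804 to 7151 CPM in whole spleen. T cell markers were lower in 7 of 8 (150 to 468 against 526 to 833 CPM), neutrophil precursor markers in 6 of 8 (111 to 766 against 382 to 1577 CPM), and germinal centre and plasmablast markers in 4 of 7, with 2 higher (930 to 1781 against 1399 to 3054 CPM). Erythroblast markers were lower in 2 of 12, and in 10 of 12 with the number as a block (57.8 to 263 against 83.4 to 501 CPM). Markers of megakaryocytes, fibroblasts, smooth muscle and endothelium were higher in 8 of 8 each, and those of macrophages in 5 of 8. With the number as a block, B cell and neutrophil precursor markers were lower in 8 of 8 each. T cell markers were then lower in 7 and higher in 1, and macrophage markers higher in 6 of 8.

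Sex was compared within each group, with 4 males and 4 females. In whole spleen, 2 of 43 members tested were called, both lower in females, against 0.194% of 13383 genes called in either direction and 0.0971% lower in females. At an unadjusted p under 0.05 there were 7 of 43 (16.3%), all lower in females, against 16.1% of all genes in either direction and 8.5% lower in females, so the share in either direction is near the background. The 2 called members, Hist1h2bc and Hist1h1c, are on the polyadenylated list. Hist1h2bc was at 57.6 to 95.3 CPM in the 4 males and 29.0 to 35.5 CPM in the 4 females, with female and male means of 33.3 ± 2.96 and 71.2 ± 16.8 CPM (SD, n = 4). Its log2 fold change, female over male, was -1.10 (SE 0.16, adjusted p = 0.0143). Hist1h1c was at 24.4 to 35.7 CPM in females and 49.9 to 72.8 CPM in males, which is -0.93 on the log2 scale (SE 0.16, adjusted p = 0.0331). In neither gene did the sexes overlap.

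With 1 number left out, both calls were lost without 445, 447 or 460, and that of Hist1h1c also without 407 or 435. DESeq2 called both and also Hist3h2a. Of the 43 members tested, 35 (81.4%) had a log2 fold change below 0, against 51.2% of all genes tested, and the median was -0.44 over the members and -0.0100 over all genes. In 4 members (9.30%) every female lay below every male, against 4.32% of all genes tested. These were Hist1h2bc, Hist1h1c, Hist3h2a and Hist1h3e. Hist1h3e, which is off the list, was at 8.94 to 10.7 CPM in males and 4.97 to 8.57 CPM in females, and did not pass (-0.60 on the log2 scale, adjusted p = 0.218). No member off the list passed, and a difference between the list and the other members was not tested. Hist1h1e was at 32.5 ± 4.58 CPM for the 4 males and 32.2 ± 12.3 CPM for the 4 females (SD). Megakaryocyte markers also separated the sexes in whole spleen, at 58.8 to 87.2 CPM in females and 111 to 210 CPM in males. Erythroblast markers did not, at 83.4 to 382 and 105 to 501 CPM. The summed histone chaperones separated them the other way, at 1874 to 1983 CPM in females and 1720 to 1789 CPM in males. The part of these in the difference was not tested.

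In the size-selected samples, 0 of 35 members tested were called by sex with edgeR (1 at an unadjusted p under 0.05) and 0 with DESeq2 (2 at an unadjusted p under 0.05). Over all 15127 genes tested, edgeR called 0.0397%, and DESeq2 called 15 genes higher and 7 lower in females. At an unadjusted p under 0.05 there were 632 genes with edgeR and 771 with DESeq2. Hist1h2bc averaged 59.1 ± 15.3 CPM for the 4 males and 53.0 ± 15.5 CPM for the 4 females (SD), which overlapped. The difference of the sex effects between the fractions was tested as an interaction. With edgeR 0 of 44 members passed (3 at an unadjusted p under 0.05), with DESeq2 0 (3) and with the number as a block 0 (1). Over all 15760 genes tested, 0 passed with edgeR (744 at an unadjusted p under 0.05), 3 with DESeq2 (867) and 3 with the block (935). The interaction of Hist1h2bc was 0.93 (SE 0.31, unadjusted p = 0.00762, adjusted p = 1). Its sex difference is therefore not shown to be limited to whole spleen.

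**Figure D5:**
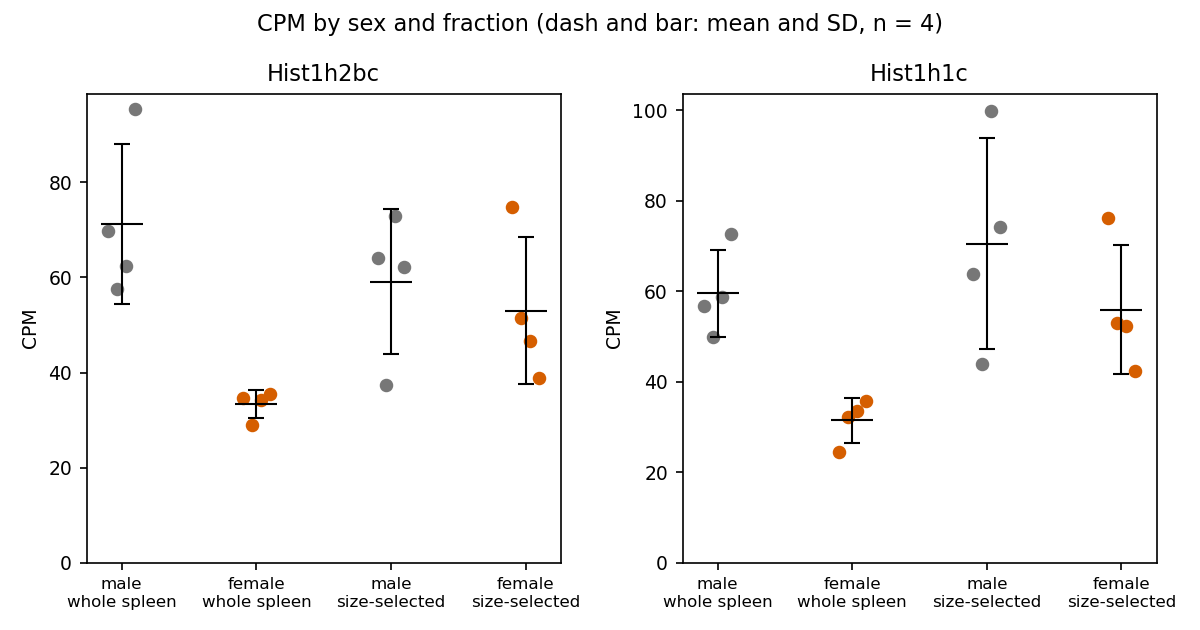
CPM of Hist1h2bc and Hist1h1c in males and females of each fraction; points are samples, dash and bar are mean and SD of 4. In whole spleen all females lie below all males for both genes, and in the size-selected samples the sexes overlap.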

How the data were processed

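The members and gene lists were chosen with earlier results of these data known. The authors' deposited table holds estimated counts per gene; Trim Galore, STAR, RSEM, DESeq and the build mm10 are named in the submitters' processing notes, with no versions or annotation. For 3898 genes, the estimated counts deposited for the size-selected samples are multiplied by constants, found from the values alone; dividing them out gave restored counts. The authors' second table holds a log2 fold change and an adjusted p-value per gene, per the file headers, and was used only to look up members. Its other columns were not analysed here.

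Of 54838 gene identifiers, 54723 were in GENCODE M21 (GRCm38), and all 70 members had the same symbol there. Coordinates, transcripts and stem-loops come from that release. Counts were rounded to whole numbers and fitted on all genes with edgeR 4.0.16 in R 4.3.3 (filterByExpr with a minimum count of 10, TMM scaling, quasi-likelihood F test, adjusted p under 0.05) and a model of group alone. The SE divides the fold change by the square root of F, and CPM uses TMM-scaled totals. The labels do not say that samples of a group came from separate animals beyond their numbers. With 8 samples a group, log CPM was centred on each group's mean per gene. Every same-number pair then correlated by 0.115 to 0.370 over 14510 genes. The mean between different numbers was -0.0285, but the centring itself pulls that mean below 0 where same-number pairs correlate. Samples of a number also share sex, so the correlations do not show that a number is 1 animal. Alternatives were RLE scaling, library totals, no filter, a minimum count of 30, DESeq2 1.42.0, limma-voom (limma 3.58.1), restored counts, a replicate block by number, a covariate for sex and leaving out each number. The within-sample ratios of the highest polyadenylated member to the highest other member of its class (H1, H2A and H2B) were added after seeing the data and are given without a test.

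Named members are the polyadenylated list, the 3 of highest mean CPM in each class, and in each class the 2 called members with the largest rise and fall among those whose mean log2 CPM is 0 or more. Of each other list, the 2 called genes with the largest rise and fall are named, with Slbp, Npat, H2afx, H3f3b, H1f0 and Mki67. Genes outside this rule were chosen after their values were seen.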

Additional observations from a re-analysis of the deposited data

Results flagged for a closer look

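Each group of 8 samples was screened for a sample far from the others, over the named members and the sums and shares of members. Of 80 groups screened, 2 had such a sample, and chance alone would give about 4. Hist3h2ba was at 12.3 CPM in whole spleen sample 435, with the other 7 samples between 3.43 and 7.22 CPM. Hist1h4m was at 3.42 CPM in size-selected sample 436, with the others between 0.997 and 1.71 CPM.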

How the results depend on the processing

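The number of members lower in the size-selected samples was 30 of 38 tested. It ran from 20 of 26 with a minimum count of 30 to 39 of 67 without a filter, so the number tested moved with it. Over all genes in these 3 fits, 4409 of 14510, 3950 of 12533 and 5136 of 28235 were lower. The median log2 fold change of the members tested ran from -1.36 to -0.93. With the number as a replicate block, which the shared numbers allow, 32 members were lower (all 30 and also Hist1h2be and Hist2h4) and 1 was higher, Hist1h1c. The block changed no other call among the members. The number of members higher was 0, and became 2 with library totals (Hist1h1c and Hist2h2be) and 1 without a filter (Hist1h1t). It was 1, Hist1h1c, with limma-voom, with sex as a covariate, with restored counts with replicate block, and without whole spleen replicate 427, and 0 to 1 with 1 number left out (1 without 408 or 435). The number called by sex in whole spleen ran from 0 to 2 with 1 number left out. DESeq2 called 223 genes higher and 295 lower in females there, against 13 and 13 with edgeR. The annotation-extended members took 54.0% of member counts in the size-selected samples and 35.7% in whole spleen. They include all 4 genes of the polyadenylated list, which alone took 38.0% and 18.3%, so the 2 shares are not independent. Over the named genes, 733 fits kept the direction and the side of the threshold, 9 gained a call, 11 lost one and 0 reversed. The 3 within-sample ratios kept their direction in all added alternatives. Low counts limit the H3 genes and the 32 members short of the filter, and the cause of each change was not tested.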
